A study of Mus musculus with 2 samples.

Results

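The acute phase protein genes described here are the serum amyloid A genes Saa1, Saa2, Saa3 and Saa4, the orosomucoid genes Orm1, Orm2 and Orm3, the lipocalin gene Lcn2, the haptoglobin gene Hp and the hemopexin gene Hpx. They were found by gene symbol in the platform annotation of the array. All 10 genes had at least 1 probe set, and together they had 12 probe sets of 45101 on the array, which carried 18193 genes in all. Liver RNA of Lpcat3fl/fl mice (control) was set against that of Lpcat3fl/fl Albumin-Cre mice (L-Lpcat3 KO, the knockout pool) on 2 Affymetrix Mouse Genome 430 2.0 arrays, 1 per genotype. Both groups carried the homozygous floxed Lpcat3 allele. The Cre recombinase of the L-Lpcat3 KO mice was driven by the albumin promoter, which is active in hepatocytes. The paper names Kupffer and endothelial cells as likely to keep Lpcat3 expression. The animals were males of 16 weeks that had eaten a western diet for 9 weeks and had fasted for 6 hr. Each array held RNA pooled from 5 mice, so there are no replicates, no test was possible and no p-value is given.

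The acute phase response is the change in the set of plasma proteins that the liver secretes during infection, injury or inflammation. Cytokines of the interleukin-6 and interleukin-1 families reach hepatocytes and act through STAT3, NF-kB and C/EBP factors on the genes of positive acute phase proteins, while negative acute phase proteins such as albumin and transthyretin decline. The members differ in inducibility in the mouse: Saa1, Saa2, Saa3 and Lcn2 are known as strongly inducible, Hp, Hpx and the orosomucoids are already made by resting liver, and Saa4 is the constitutive serum amyloid A.

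Values are linear MAS5 signal intensities scaled to a trimmed mean of 500. The median of all values, 86.6, served as a floor for lower ones. To read the members against the 12320 genes that reached the floor on at least 1 array, a gene was taken by its brightest probe set. All 12 member probe sets were above the floor on both arrays, so none of their ratios is a bound. Genes were called at a 2-fold difference. As a measure of the spread between probe sets, ratios of different probe sets for the same gene were compared. Their pooled SD (log2) was 0.09 for probe sets of mean signal 10000 or more, 0.16 between 1000 and 10000, and 0.33 below 1000. Each range compared only probe sets of a gene that lie within it, so pairs that span ranges, such as that of Saa4, are left out. Variation among mice is not part of this SD, nor is error that the probe sets of an array share, so it is not the full technical error. Lpcat3 itself read 5173 in the control pool and 2198 in the knockout pool (-1.23 on the log2 scale) with 1 probe set. The sources used here do not give whether its probes lie in the deleted part. The labelled tissue was checked against hepatocyte markers. All 13 that were matched were measured on both arrays, none differed by 1.5-fold, and their median log2 ratio was -0.15. That median was -0.01 under quantile normalization and -0.02 under lowess centring.

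Lcn2 and Orm2, 2 of the 10 acute phase genes, passed the 2-fold threshold upward in the knockout pool, and none passed it downward by its brightest probe set. Of all measured genes, 2.74% passed it upward and 0.722% downward. Orm3 lay just short of the threshold at 1.97-fold, and Saa4 was the member with the lowest ratio. The other 6 genes, Saa1, Saa2, Saa3, Orm1, Hp and Hpx, differed by less than 1.5-fold. At 1.5-fold Lcn2, Orm2 and Orm3 were called higher and Saa4 lower, against 9.15% and 3.86% of measured genes. The log2 ratios of the 10 genes ran from -0.72 to 1.37, with a median of 0.24, against a median of 0.01 for all measured genes. Of the 10 ratios 7 were above 0 and 3 below, and of the 12320 measured genes 6319 were above 0 and 6000 below. The ratios of Saa1, Orm1, Hp and Hpx lay within 0.09 of 0. Those of Hp and Hpx were above 0 under quantile normalization and lowess centring, so the split depends on the scaling. Summed over the 10 genes by brightest probe set, the signal was 118600 in the control pool and 116964 in the knockout pool.

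**Figure D1:**
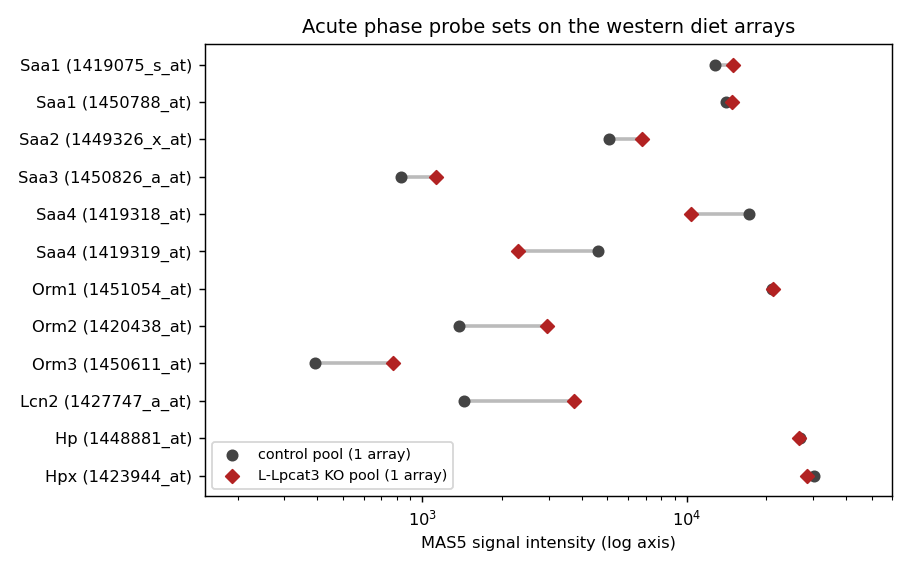
Signal of each of the 12 acute phase probe sets, labelled by gene and probe set, on the x axis (MAS5 intensity, log axis) in the control pool (dark circles) and the L-Lpcat3 KO pool (red diamonds); each point is 1 array and no error can be drawn. Lcn2, Orm2 and Orm3 lie farthest to the right of their control value, both Saa4 probe sets lie to its left, and the symbols of Orm1, Hp and Hpx nearly coincide.

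Lcn2 encodes lipocalin 2, a secreted protein that binds bacterial siderophores and so withholds iron from microbes. It is made by hepatocytes in the acute phase and is also carried in the granules of neutrophils. Lcn2 had the highest ratio of the 10 genes. It read 1443 in the control pool and 3734 in the knockout pool, 2.59-fold higher (1.37 on the log2 scale). Of the 12320 measured genes, 115 had a higher ratio. Among the 3778 genes of mean signal between 1000 and 10000, where Lcn2 lies, 1.11% were at least 2-fold higher. The log2 ratio was 1.34 to 1.40 over the 8 scaling and floor settings. Lcn2 has a single probe set on this array, of the kind that can match several transcripts of 1 gene, so no second measurement stands beside it. The proximal promoter of Lcn2 is shown because it carries the largest difference of the set. It is the 250 bases before the RefSeq start in GRCm38.p6, chr2:32387740-32387989 on the minus strand, with capitals marking the 1 match to the NF-kB motif, searched on both strands as GGG and CC with any 5 bases between them.
Lcn2: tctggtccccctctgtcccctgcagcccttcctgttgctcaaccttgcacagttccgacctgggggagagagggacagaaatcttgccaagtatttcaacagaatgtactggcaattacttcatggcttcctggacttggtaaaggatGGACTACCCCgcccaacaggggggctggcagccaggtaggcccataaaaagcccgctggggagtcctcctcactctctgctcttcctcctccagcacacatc

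The orosomucoids, or alpha-1-acid glycoproteins, are lipocalins of plasma that bind lipids and drugs. In the mouse they are encoded by 3 genes that lie side by side on chromosome 4 in the order Orm1, Orm3, Orm2. The 3 genes gave different ratios. Orm2 read 1372 in the control pool and 2956 in the knockout pool, 2.15-fold higher (1.11 on the log2 scale). Orm3 read 392 in the control pool and 774 in the knockout pool, 1.97-fold higher (0.98 on the log2 scale). Orm1 read 21019.5 in the control pool and 21163 in the knockout pool (0.01 on the log2 scale). Orm2 and Orm3 were thus both higher by about as much, while the signal of Orm1, the neighbour of Orm3, differed between the arrays by less than the spread between probe sets. Each of the 3 genes has 1 probe set, all without the suffix that marks a match to several genes. The signal of Orm3 lies in the range where that spread is 0.33. In that range of under 1000, 3.63% of genes were at least 2-fold higher. For Orm2, in the same range as Lcn2, the share was the 1.11% given above, and 236 of all measured genes had a higher ratio than Orm2. Orm3 had 360 above it. Orm1 is among the brightest probe sets of the array, with 195 brighter gene probe sets in control liver. Of the 480 genes of mean signal 10000 or more, 0.417% passed 2-fold upward and 0.208% downward, so calls were rare at this end of the scale. Whether saturation narrows ratios there was not tested.

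The 250 bases before the starts of Orm2 and Orm3 are shown because these adjacent genes both had ratios near 2-fold. They are identical at 218 of 255 aligned positions (85.5%). Capitals mark the match to the C/EBP motif TTNNGNAAT, searched on both strands; 10.2% of 32851 RefSeq promoter windows of the same length hold it. Orm2 has 1 match, from -109 to -101 relative to the start, and Orm3 has none in this window. Orm2 is at chr4:63362199-63362448 and Orm3 at chr4:63355908-63356157, both GRCm38.p6 and on the plus strand.
Orm2: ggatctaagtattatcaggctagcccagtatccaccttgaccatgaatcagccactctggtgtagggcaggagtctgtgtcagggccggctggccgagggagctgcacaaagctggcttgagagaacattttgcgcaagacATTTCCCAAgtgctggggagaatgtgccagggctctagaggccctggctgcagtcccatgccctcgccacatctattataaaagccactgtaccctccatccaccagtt
Orm3: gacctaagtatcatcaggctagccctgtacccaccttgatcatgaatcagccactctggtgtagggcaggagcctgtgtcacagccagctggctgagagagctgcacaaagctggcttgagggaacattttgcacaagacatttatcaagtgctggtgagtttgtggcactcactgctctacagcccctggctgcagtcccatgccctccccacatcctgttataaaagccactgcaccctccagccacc

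The serum amyloid A proteins are small apolipoproteins of high-density lipoprotein. Saa1 and Saa2 are the major inducible forms of liver, Saa3 is also made outside hepatocytes, by macrophages and adipose tissue among others, and Saa4 circulates constitutively. Their genes form a cluster on chromosome 7 in the order Saa3, Saa4, Saa1, Saa2. Saa1 read 14127 in the control pool and 14827 in the knockout pool on the probe set that represents it (0.07 on the log2 scale). Saa1 was already bright in the control pool, with 369 brighter gene probe sets, and whether saturation narrows its ratio was not tested. Its other probe set read 12766 and 14930, which is 0.23 on the same scale. This second probe set is of the kind that may detect more than 1 transcript. Its annotation symbol is Saa1, but it carries the same target accession as the Saa2 probe set, so it cannot be given to either gene alone. Saa2 read 5082 in the control pool and 6786 in the knockout pool, 1.34-fold higher (0.42 on the log2 scale), on a probe set that can also cross-hybridize. All 3 probe sets of the inducible pair were higher in knockout liver, by 1.05 to 1.34-fold. None reached 1.5-fold, a level passed upward by 3.6% of genes between 1000 and 10000, where Saa2 lies. The 0.07 of the first Saa1 probe set is smaller than the spread of 0.09 between probe sets at this brightness. The other 2 share a target, so the 3 are not separate measurements of the 2 genes.

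The near identity of the pair extends to the promoters, which are shown for that reason. Saa1 and Saa2 are identical at 238 of 251 aligned positions (94.8%) in the 250 bases before their starts, and each holds 1 match to the NF-kB motif and 1 to the C/EBP motif, in capitals. Saa1 is at chr7:46742981-46743230 on the minus strand and Saa2 at chr7:46751583-46751832 on the plus strand of GRCm38.p6, so the genes are transcribed away from each other.
Saa1: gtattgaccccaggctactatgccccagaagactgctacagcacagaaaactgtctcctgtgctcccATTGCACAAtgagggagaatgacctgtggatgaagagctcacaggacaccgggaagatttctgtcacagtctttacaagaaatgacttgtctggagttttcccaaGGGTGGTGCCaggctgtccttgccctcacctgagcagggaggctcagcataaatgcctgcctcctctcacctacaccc
Saa2: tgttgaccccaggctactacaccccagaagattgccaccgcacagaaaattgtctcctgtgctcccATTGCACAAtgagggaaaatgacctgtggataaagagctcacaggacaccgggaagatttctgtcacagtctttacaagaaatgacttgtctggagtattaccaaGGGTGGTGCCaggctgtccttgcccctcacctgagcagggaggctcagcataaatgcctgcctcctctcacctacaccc

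Saa3 read 828 in the control pool and 1129 in the knockout pool, 1.36-fold higher (0.45 on the log2 scale) on its single probe set. This is larger than the pooled spread of 0.33 among probe sets of genes at this signal, but 1672 of the measured genes had a higher ratio. Of genes under 1000, 12.3% were at least 1.5-fold higher, a level Saa3 did not reach.

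Saa4 ran the other way. Its representative probe set read 17186 in the control pool and 10417 in the knockout pool, 1.65-fold lower (-0.72 on the log2 scale). The second probe set read 4616 and 2301, 2.01-fold lower. Both probe sets thus gave a ratio below 0 and beyond 1.5-fold. Of the 480 genes of mean signal 10000 or more, 2.29% were at least 1.5-fold lower. Over all measured genes, 279 had a lower ratio than the representative probe set and 87 a lower ratio than the second. The second probe set stood just past the 2-fold line, and its log2 ratio ran from -1.01 to -0.97 over the scaling and floor settings, so the side of the line on which it falls depends on the scaling. The direction held in all of them. The Saa4 promoter is shown beside those of the inducible pair because it was the only gene of the cluster with a ratio below 0. It lies between Saa3 and Saa1, and the 0.07 of Saa1 is itself within the spread between probe sets. The Saa4 promoter is identical to that of Saa1 at 127 of 298 aligned positions (42.6%), no more than the unrelated promoters of Lcn2 and Hpx share by the same alignment (45.9%). Capitals mark its 1 NF-kB match. It is at chr7:46732604-46732853 on the minus strand of GRCm38.p6.
Saa4: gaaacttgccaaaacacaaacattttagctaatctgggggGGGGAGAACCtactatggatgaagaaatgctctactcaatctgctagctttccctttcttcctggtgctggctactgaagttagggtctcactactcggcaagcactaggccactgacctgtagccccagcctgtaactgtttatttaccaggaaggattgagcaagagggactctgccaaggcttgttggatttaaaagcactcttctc

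Over the 8 members with a promoter in the RefSeq table, 4 held a match to the NF-kB motif (Saa1, Saa2, Saa4 and Lcn2) and 3 to the C/EBP motif (Saa1, Saa2 and Orm2). The promoters of Saa1 and Saa2 are 94.8% identical and share both matches, so these do not count as separate occurrences. The shares of all promoter windows with a match were 45.8% and 10.2%. The STAT3 motif TTCNNNGAA was in none of the 8 and in 7.02% of all windows. Lcn2, the highest member, and Saa4, the lowest, both held the NF-kB letters and not those of C/EBP. These are matches of letters in a short window and not binding sites.

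Haptoglobin and hemopexin are the plasma scavengers of free hemoglobin and of heme, and both are made in bulk by hepatocytes. Hp read 26905 in the control pool and 26556 in the knockout pool (-0.02 on the log2 scale). Hpx read 30245 in the control pool and 28621 in the knockout pool (-0.08 on the log2 scale). Both differences were smaller than the spread of 0.09 between probe sets at this brightness, and their sign turned under quantile normalization and lowess centring, where Hp was at 0.09 in both and Hpx at 0.05 and 0.03. Both are among the brightest on the array, with 96 and 62 brighter gene probe sets in control liver.

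**Figure D2:**
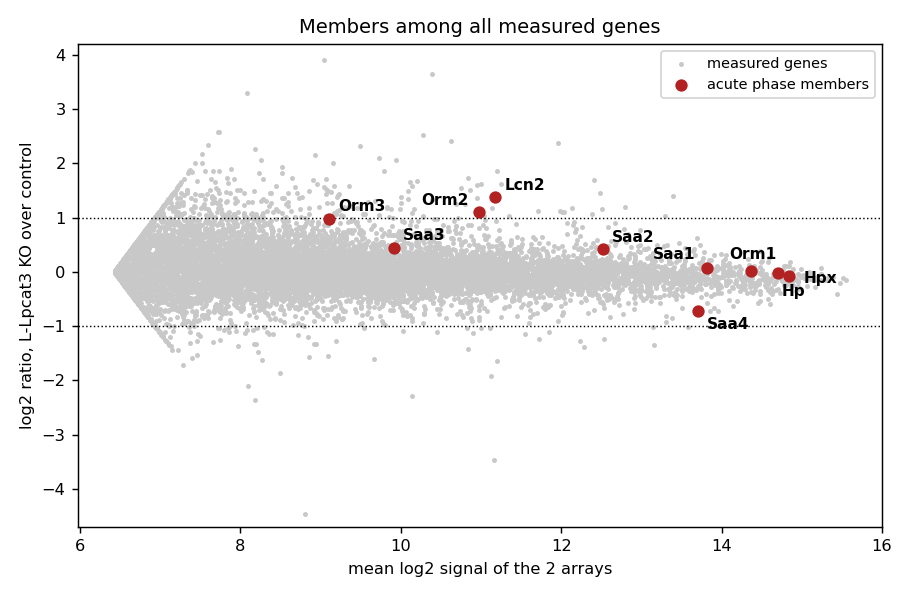
Grey points show all measured genes by brightness (x axis, log2 signal averaged over both arrays) and by ratio (y axis, log2, L-Lpcat3 KO over control); red points are the 10 acute phase genes and dotted lines mark 2-fold. Lcn2 (1.37) and Orm2 (1.11) lie above the upper line, Saa4 (-0.72) lies below most genes of its brightness, and Saa1, Orm1, Hp and Hpx lie at 0 to within 0.1 at the bright end.

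The scaling of the arrays had little effect on the larger ratios. The log2 ratios of the 12 probe sets moved by less than 0.29, the pooled SD among probe sets of one gene over all signals, in all 7 other scaling and floor settings. Because all 12 lay above the floor, the lower floor and no floor could not move them, and the higher floor moved Orm3 alone, to 0.93. Scaling moved Orm1 from 0.01 up to 0.11, Hp from -0.02 up to 0.09 and Hpx from -0.08 up to 0.05. These shifts exceed the spread of 0.09 between probe sets at this brightness.

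**Figure D3:**
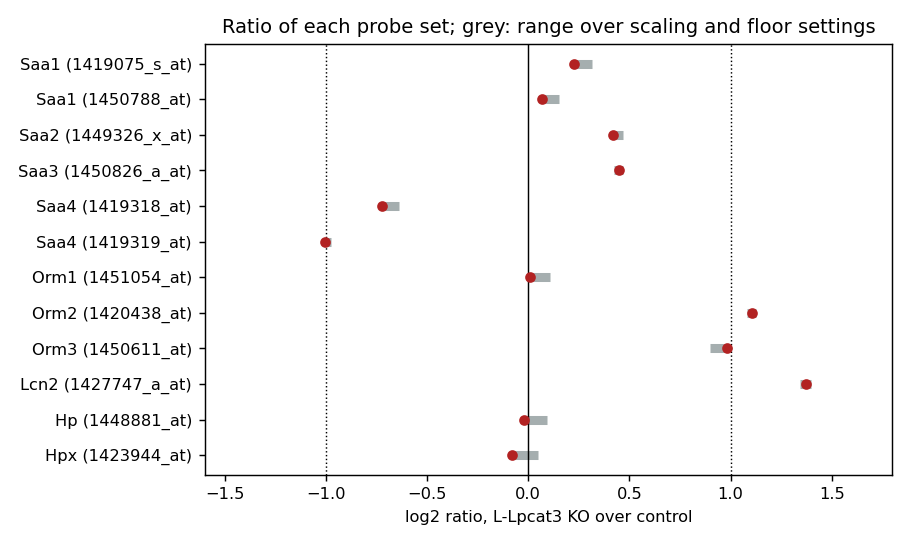
Red points give the ratio (x axis, log2, L-Lpcat3 KO over control) of the 12 probe sets, grey bars the lowest and highest ratio over the 8 scaling and floor settings, and dotted lines 2-fold. Lcn2 and Orm2 stay to the right of the upper line, the Orm3 bar lies between 0.90 and 0.98, and the bar of the second Saa4 probe set straddles the lower line.

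The wider set of positive acute phase genes was not higher. Of 24 listed genes, 20 were matched and measured, none differed by 2-fold, 5 were above 0 and 15 below, and the median log2 ratio was -0.20. Their summed signal was 301598 in the control pool and 261985 in the knockout pool. The fibrinogen gene Fgb, the brightest of the list, read 34719 and 28553 (-0.28). The inter-alpha-trypsin inhibitor heavy chain gene Itih4 was at -0.37 and the angiotensinogen gene Agt at -0.36. Il1rn, which encodes the interleukin-1 receptor antagonist and is also a macrophage product, had the highest ratio at 0.90, from a signal of 178 to 330.5, and its 3 probe sets ran from 0.10 to 1.10. Cd14, the lipopolysaccharide co-receptor, was at 0.52. The classical human acute phase reactant Crp, only weakly inducible in mice, was at -0.23. Lcn2 and Orm2 therefore had ratios above all 20 of these genes by their brightest probe sets, and Orm3 did too. The highest Il1rn probe set, at 1.10, was above Orm3.

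Negative acute phase genes lay slightly below 0. Of 10 measured genes none differed by 2-fold, 9 were below 0 and the median was -0.19. Their summed signal was 294615 in the control pool and 260118 in the knockout pool. The lowest were the cytochrome P450 gene Cyp2c29 at -0.60 and Serpina6, which encodes corticosteroid-binding globulin, at -0.48. Fetuin-A, Ahsg, was at -0.27 and fetuin-B, Fetub, at -0.24. Apoa1, the main protein of high-density lipoprotein, was the brightest, with signals of 48786 and 44841 and a ratio of -0.12. The medians of the positive list (-0.20), of the negative list (-0.19) and of the hepatocyte markers (-0.15) were close to each other. Alb, Ttr, Apoa1 and Fgb each stand in the hepatocyte list as well as in 1 of the other 2. Under quantile normalization the medians were -0.12 (positive), -0.08 (negative) and -0.01 (hepatocyte). Under lowess centring they were -0.11, -0.08 and -0.02 in the same order. How far these lists lay below 0 thus depends on the scaling.

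The cytokines that drive the response were at the bottom of the scale. Il6, Tnf, Osm and Il11 were below the floor on both arrays, which does not show that they were absent. Il1b was above the floor in the L-Lpcat3 KO pool alone, with signals of 63.6 and 140.2, a log2 ratio of at least 0.69. Il1a was at 0.68, from 113 to 181, Clcf1 at 0.26 and Lif, with its L-Lpcat3 KO signal below the floor, at -0.14 or lower. No cytokine was called at 2-fold, which depends on the floor: 1 was called higher with the floor at the 25th percentile, and 1 higher and 1 lower with no floor.

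Among 8 measured cytokine receptor genes 1 passed 2-fold upward and none downward. Osmr, the oncostatin M receptor chain, read 181 in the control pool and 444 in the knockout pool, which is 1.29 on the log2 scale from 1 probe set. The list had 0 genes called higher with the floor at the 75th percentile and 2 with the floor at the 25th percentile or with no floor. Il6ra, the ligand-binding chain of the interleukin-6 receptor, read 1623 and 960.2 (-0.76), and its second probe set gave -0.69. Il1r1, the signalling receptor for interleukin-1, read 790.4 and 445 (-0.83). Its partner Il1rap was at -0.57, although its 4 probe sets ran from -0.57 to -0.24. Lifr was at -0.43 and at -1.16 on its other probe set. Il6st, the gp130 chain shared by the family, was at 0.31. The list therefore held values on both sides of 0, with 5 of 8 genes below it and a median of -0.33.

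Signalling and transcription factor genes showed no difference of 2-fold in the 12 measured genes, and their median was 0.02. Cebpd, an inducible C/EBP factor, was at 0.68, from 790.2 to 1269, but at 0.10 on its other probe set. Cebpb was at 0.03, with signals of 12343 and 12576, and Stat3 at -0.11. Socs3, the feedback inhibitor that STAT3 induces, was at -0.58 on the probe set that represents it, from 278 to 186, and its 3 probe sets ran from -0.58 to 0.42. The glucocorticoid receptor gene Nr3c1 was at -0.46 and the kinase gene Jak1 at 0.38. Nfkb1 was not analysed here.

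Of the receptors that bind these proteins, 1 of 8 measured genes passed 2-fold upward and none downward, with a median of 0.38. The median turned to -0.28 with the floor at the 75th percentile, and the count of genes 2-fold higher was 0 with the mean of probe sets or without multi-transcript probe sets. Cd36, a scavenger receptor that also takes up serum amyloid A, was at 1.09, and its 3 probe sets ran from 0.76 to 1.09. Scarb1, a further scavenger receptor on the list, was at -0.28, from 4457 to 3679, and its 3 probe sets ran from -0.29 to -0.23. Fpr2, a formyl peptide receptor for serum amyloid A, was at 0.45, from 129 to 177, and Tlr2, a sensor of bacterial lipoproteins, at 0.69, from 105 to 169.8. Slc22a17, the receptor for lipocalin 2, was at 0.55, from 121 to 177. Lrp1, the hemopexin receptor, was at -0.28, and Cd163, the macrophage receptor for haptoglobin bound to hemoglobin, at -0.19.

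**Figure D4:**
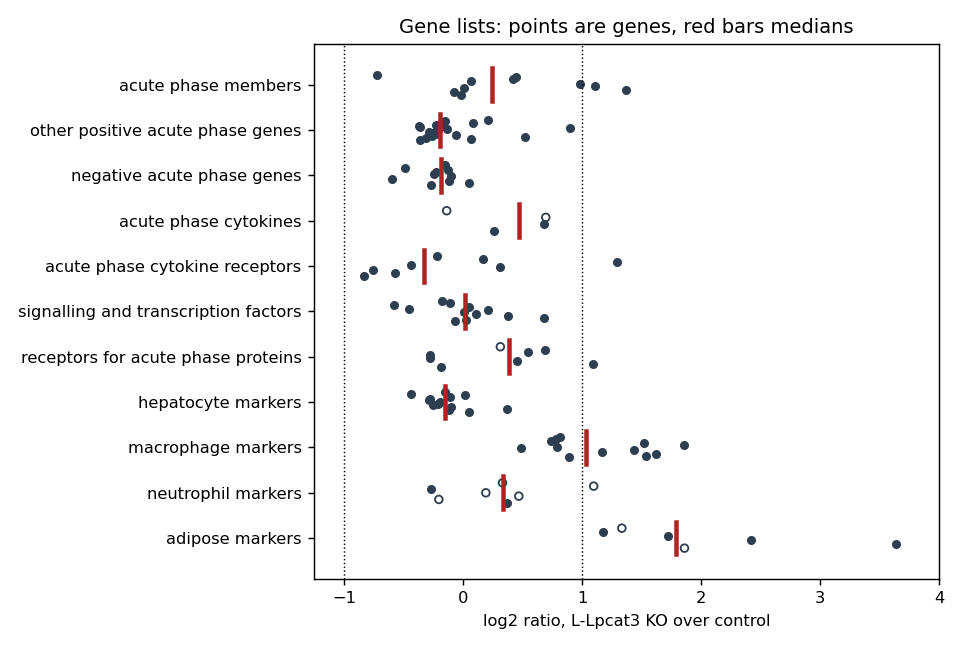
Rows are gene lists and points their measured genes, by ratio (x axis, log2, L-Lpcat3 KO over control); open points were below the floor on 1 array and give bounds, red bars show the median of a row and dotted lines 2-fold. The acute phase members spread from -0.72 to 1.37 around a median of 0.24, the other positive and the negative acute phase genes sit near -0.20 and -0.19, and the macrophage and adipose lists lie to the right.

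Several members are also made by cells other than hepatocytes, so the markers of those cells are given beside them. In whole liver, more cells of a type and more RNA per cell cannot be told apart. Macrophage markers were higher in knockout liver in 12 of 12 measured genes, 6 of them at least 2-fold, with a median of 1.03. Their summed signal went from 17636 to 37067. The largest ratios were those of the lysozyme gene Lyz2 (1.86), C1qb (1.62), C1qa (1.54) and Marco (1.52), followed by Cd68 (1.44) and Cd5l (1.17). The 3 probe sets of C1qb ran from 0.73 to 1.62 and the 2 of Marco from 0.55 to 1.52. Those of Csf1r, at 0.79 by its brightest, ran from 0.58 to 1.16. Itgam was below the floor on both arrays. Saa3 was at 0.45, near the lowest ratio of the list, 0.49 for the Kupffer cell gene Clec4f. These values lie closer than the spread between probe sets at such signals, so their order carries no information.

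Neutrophil markers, relevant to Lcn2 and Hp, were near the floor. Of 11 matched genes 4 were below the floor on both arrays, among them the granule genes Elane, Camp and Mmp8, and 5 of the other 7 had 1 array below it. Their median was 0.33. Their summed signal, with readings below the floor taken as deposited, was 728 in control and 916 in knockout liver. Of the 7 measured genes 5 were above 0 and 2 below. S100a8 was the highest, at least 2.14-fold higher with a signal of 185 in knockout liver, a call that was lost with a pseudocount and without multi-transcript probe sets. Csf3r, the receptor for granulocyte colony-stimulating factor, was at 0.37, and S100a9 was at 0.33 or higher. Of the granule genes, Mmp9 was at 0.47 or higher and Mpo at 0.19 or higher, while Ngp was at -0.27 and Ltf at -0.20 or lower.

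Adipose markers, relevant to Saa3, Lcn2, Hp and the orosomucoids, were at least 2-fold higher in all 6 measured genes. Cidea (3.64), Cidec (2.42), Fabp4 (1.73) and Pparg (1.17) are also genes that fatty hepatocytes express. The 3 probe sets of Fabp4 ran from 0.11 to 1.73. The adipocyte hormone genes Adipoq (at least 1.86) and Retn (at least 1.33) were below the floor in control liver, and Lep was below it on both arrays. The summed signal of the list, with readings below the floor taken as deposited, went from 2640 to 13312. The part of macrophages, neutrophils and adipose tissue in the ratios of Lcn2, Orm2, Orm3, Saa2 and Saa3 was not tested.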

How the data were processed

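The authors pooled liver RNA of 5 mice per genotype, hybridized 1 Affymetrix Mouse Genome 430 2.0 array per pool and analysed the data in GenespringGX. The deposited table holds linear signal intensity, summarized by MAS5 according to the submitters' processing notes, with the version and genome build not given in the sources used here. MAS5 scales whole arrays, so a change shared by most transcripts would not be seen. Detection calls were not used here.

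Probe sets were named from the platform annotation, with symbols updated by gene identifier through the RefSeq table of GRCm38.p6. The array holds 45101 probe sets: 34945 with 1 gene symbol, 932 with more than 1 (not used), 9160 unnamed here and 64 controls. Of 18193 genes, 18032 matched the RefSeq table. Values below 86.6, the median of both arrays, were raised to it, log2 ratios were taken, and a gene was represented by its brightest probe set (mean log2 signal). With 1 array per genotype no test was made. The members and the 10 other gene lists were chosen with earlier results of these data known. Named genes are the members, and in each list the genes past 2-fold, those of largest ratio, the brightest and some core cytokine signalling genes. Crp, Cd163, Scarb1, Lifr, Clec4f, Lep, Itgam, Csf3r, S100a9, the granule genes and the neighbours of the clusters were added after their values were seen. Counting was tested on simulated data. Alternatives were median centring, quantile normalization, lowess centring, floors at percentiles 25 and 75, a pseudocount of 50, no floor, averaging the probe sets of a gene, use of only those without the suffix _a, _s or _x (which mark possible matches to several transcripts), and thresholds of 1.5-fold and 3-fold. Promoters came from RefSeq (GRCm38.p6), of which the 250 bases before each start were used. Python 3.11.15, numpy 2.4.6, pandas 2.3.3, statsmodels 0.14.6 and matplotlib 3.10.9 were used.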

Additional observations from a re-analysis of the deposited data

How the results depend on the processing

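The 10 genes and 12 probe sets of the acute phase set kept their values to within 0.29 on the log2 scale in all the alternatives that could be computed. Using only probe sets without a suffix for several transcripts removed Lcn2, Saa2 and Saa3, so 1 member (Orm2) was at least 2-fold higher and the median of the remaining members was 0.01 in place of 0.24. At a threshold of 3-fold 0 members were higher, and at 1.5-fold 1 member, Saa4, was lower. Over all measured genes, the counts higher and lower were 1162 and 495 with a floor at the 25th percentile, 90 and 25 at the 75th, 2230 and 1183 with no floor, 1127 and 476 at 1.5-fold and 55 and 11 at 3-fold, against 337 and 89. The share of higher genes among those called was 79.1%, and 65.3% with no floor. Of 304 values of the other lists under alternatives, 30 moved by more than 0.29 or, for counts, by over 1.5 times. No paired analysis was possible because each genotype has 1 array. Ratios near the floor are limited by low signal over background.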

Other observations

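The genes next to the clusters gave values of their own. Col27a1, a collagen gene beside Orm1, read 2038 in the control pool and 1125 in the knockout pool (-0.86 on the log2 scale), and its second probe set gave -1.09. Akna, beside Orm2, was at 0.93 near the floor (88.0 to 168), and its second probe set at least 0.31. Hps5, beside Saa2, was at 1.06 on its single probe set, from 137 to 287, and Saal1, beside Saa3, was at -0.40 on a set of 3 that ran from -0.40 to 0.39.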
